A study of Homo sapiens with 6 samples.

Results

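Entry into mitosis is driven by CDK1, a cyclin-dependent kinase that is active only when bound to a cyclin, chiefly cyclin B1 (CCNB1) or cyclin B2 (CCNB2). WEE1 holds CDK1 back by phosphorylating it, while the Polo-like kinase PLK1 and the Aurora kinases AURKA and AURKB build the spindle, help to turn CDK1 on and steer chromosome attachment and cytokinesis. BUB1, BUB1B (the BubR1 protein) and TTK (the Mps1 kinase) are parts of the spindle assembly checkpoint, which delays anaphase until every chromosome is attached. Most of these genes are transcribed late in the cell cycle, peaking in G2 and M phase, so in cycling tumour cells their RNA marks the cells that prepare for division.

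The 10 genes named above were taken by symbol, out of 58174 Ensembl genes measured, and all 10 were found. They were measured in LN-229, an established human glioblastoma line, in RNA enriched for the nucleus and freed of ribosomal RNA. The tested libraries are 3 of cells treated with sh-JMJD1C, which in usual notation is a hairpin RNA that targets JMJD1C, a JmjC-domain protein of the KDM3 histone demethylase family, and the controls are 3 libraries labelled control-NC. The labels do not say how the hairpin was delivered, how long cells were treated, how many hairpins were used, or whether the 3 libraries of a group stem from different cultures. The p-values therefore cover the spread from library to library and no more, which may be technical.

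Levels are given as scaled RPM, the reads of a gene relative to a library size that was set by median ratios. The deposited FPKM (fragments scaled to gene length and library total) were fitted with limma on log2(scaled FPKM + 0.5), called the FPKM fit here, and whole reads recovered from the FPKM were fitted with limma-voom, called the read fit. A gene is called when its Benjamini-Hochberg adjusted p, over all genes tested, is below 0.05. The sh-JMJD1C libraries held 1660561 to 1919675 reads and the control libraries 544443 to 2960458, with control 1 the smallest. Reads of RN7SL, the signal recognition particle RNA, made up 1.18, 15.7 and 18.5% of sh-JMJD1C 1 to 3, against 0.378 to 1.77% of the control libraries, and those of MALAT1, a nuclear RNA, made up 0.292, 0.0915 and 0.185% of sh-JMJD1C 1 to 3, against 1.25 to 2.4% of the control libraries. Mitochondrial reads ran from 1.33 to 12.6% in sh-JMJD1C libraries (highest in sh-JMJD1C 1) and from 2.93 to 8.7% in control libraries, and the part of this make-up in the results was not tested. The 6 markers of the line summed to 2160, 1180 and 1250 scaled RPM in sh-JMJD1C 1 to 3, against 2110, 2070 and 2210 in control 1 to 3, so sh-JMJD1C 2 and 3 were lower. VIM overlapped, at 712 to 908 in sh-JMJD1C and 638 to 822 in control libraries, whereas EGFR was at 753, 298 and 268 in sh-JMJD1C libraries, against 1160, 1150 and 1090 in control libraries (log2 fold change -1.54, adjusted p = 0.0587, limma-voom), and NES had 35 reads in all. The 9 markers of other cell types stood for blood, epithelial, liver, endothelial, stromal and brain cells. They summed to 15.4 to 40.9 scaled RPM in sh-JMJD1C libraries and 31.3 to 46.9 in control libraries. ALB, PECAM1 and AQP4 were at 0 in every library. MBP was at 16.5, 9.6 and 7.02 in sh-JMJD1C 1 to 3, against 44.8, 27.2 and 21.0 in control 1 to 3. COL1A1 was at 20.4, 19.2 and 5.62 in sh-JMJD1C 1 to 3, against 0, 4.88 and 5.13 in control 1 to 3. Neither MBP nor COL1A1 passed the test (adjusted p = 0.106 and 0.164, limma-voom).

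JMJD1C, the targeted gene, was at 43.1, 11 and 28.1 scaled RPM in sh-JMJD1C 1 to 3, against 168, 93.1 and 171 in control 1 to 3. The groups did not overlap, and the sh-JMJD1C mean was 19.0% of the control mean. The log2 fold change was -2.49 in the read fit (adjusted p = 0.0253, limma-voom) and -1.82 in the FPKM fit (adjusted p = 0.118, limma). An exact two-sided permutation test on its levels gave p = 0.1, the smallest that 3 libraries against 3 can give.

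PLK1, AURKA, AURKB and CCNB1 rose in the read fit, by 3.76 to 5.24 times in mean level. The other 6 genes did not pass its test, and none of the 10 fell. In the read fit 5.52% of all 11877 genes were called, 3.71% higher and 1.81% lower, which is the background for these 4 of 10. Scaling by library totals turned that balance, with 10.1% of genes called, of which 26% were higher, and the 10 genes' median at 0.46 against -0.52 over all genes. There 3 of the 10 were called, and CCNB1 was not (log2 fold change 1.42, adjusted p = 0.0586, limma-voom). In the FPKM fit, where 0.185% of 18383 genes were called, none of the 10 genes was, and 5 of them had an unadjusted p under 0.05 (3658 of all genes did; limma). In simulated data at this depth the FPKM fit did not call genes with known changes. That simulation held no trends over length or GC content, and in the real data the fit called 34 genes. It therefore cannot settle what the count of 0 means. With the FPKM fit limited to protein-coding genes, 8.99% of genes were called, among them the same 4 genes. The median log2 fold change of the 10 genes was 0.87 in the read fit and 0.76 in the FPKM fit, against -0.08 and -0.16 over all genes tested. A positive log2 fold change in the read fit was found for 8 of the genes and for 47.2% of all genes. More cells in G2 or M phase and more RNA of these genes per cell cannot be told apart in bulk RNA. Nor can either be told apart from the uneven make-up of these nuclear-enriched libraries, given above.

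Together the 10 genes held 823, 787 and 813 scaled RPM in sh-JMJD1C 1 to 3, against 273, 283 and 424 in control 1 to 3. The sums of the sh-JMJD1C libraries lay close together and above every control sum. As RPM of the unscaled library totals the sums were 865, 598 and 697 in sh-JMJD1C libraries, against 235, 347 and 586 in control libraries, so that sh-JMJD1C 2 and control 3 came near each other. The 4 called genes with CCNB2 and BUB1, 6 of the 10, were higher in every sh-JMJD1C library than in any control library, against 17.3% of all genes in that direction. As RPM of the library totals this held for the 4 called genes only, against 9.9% of all genes.

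**Figure D1:**
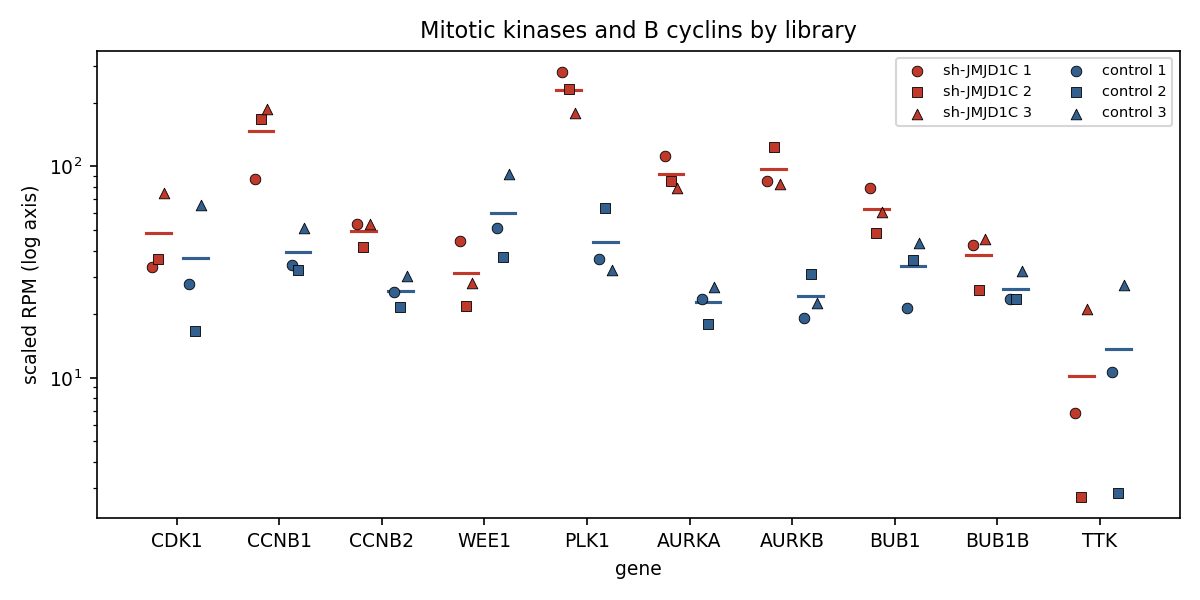
Scaled RPM (log axis) of each gene in each library, sh-JMJD1C in red to the left of control in blue, with the symbol giving the library number and the bar the group mean. PLK1, AURKA, AURKB and CCNB1 show a clear gap between the groups. CDK1 and TTK, but also CCNB1 and BUB1B, were highest in the library numbered 3 of each group. CCNB2 was highest in control 3 as well, and its sh-JMJD1C 1 and 3 were level at 53.4 scaled RPM. Control 3 was the highest control library for 8 of the genes.

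The promoters of genes that peak in G2 and M phase often hold a CHR element (cell cycle genes homology region, bound by the DREAM and MuvB complexes) and CCAAT boxes, bound by NF-Y. The CHR was searched here as TTTGAA or TTCGAA only. RefSeq promoter windows of GRCh38.p14, from 250 bases before to 50 after the start of transcription, were found for 7 of the genes in 9 windows and searched on both strands. The 130 bases before the start are shown for 7 of those windows, 1 per gene, 5′ to 3′ on the gene's strand. There the genes that were called and the genes that were not can be compared. The stretches of PLK1, AURKB, CCNB1 and CDK1 lie inside the gene coordinates given below, and those of CCNB2, BUB1 and BUB1B partly so. Not shown are 60778201-60778330 of the other CDK1 window, directly before the CDK1 coordinates, and 8210226-8210355 of the other AURKB window. These windows held 1 CCAAT each, and that of CDK1 also 1 TTTGAA, all further from the start than 130 bases. Capitals mark each TTTGAA and CCAAT, or its reverse complement.
PLK1, chr16:23678759-23678888, + strand: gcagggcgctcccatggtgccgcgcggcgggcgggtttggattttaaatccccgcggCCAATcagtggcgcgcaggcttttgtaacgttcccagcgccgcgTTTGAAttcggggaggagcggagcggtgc
AURKB, chr17:8210250-8210379, - strand: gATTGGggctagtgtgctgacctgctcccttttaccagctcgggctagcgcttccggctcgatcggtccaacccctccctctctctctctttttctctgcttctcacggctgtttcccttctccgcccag
CCNB1, chr5:69167020-69167149, + strand: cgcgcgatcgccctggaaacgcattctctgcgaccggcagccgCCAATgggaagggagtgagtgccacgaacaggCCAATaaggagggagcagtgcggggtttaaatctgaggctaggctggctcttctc
CCNB2, chr15:59105016-59105145, + strand: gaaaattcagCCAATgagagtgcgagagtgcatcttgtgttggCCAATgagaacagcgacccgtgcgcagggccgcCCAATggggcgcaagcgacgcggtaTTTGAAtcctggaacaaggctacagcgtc
CDK1, chr10:60778348-60778477, + strand: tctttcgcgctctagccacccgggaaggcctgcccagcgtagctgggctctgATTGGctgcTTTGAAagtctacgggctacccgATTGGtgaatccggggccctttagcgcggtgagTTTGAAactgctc
BUB1, chr2:110678064-110678193, - strand: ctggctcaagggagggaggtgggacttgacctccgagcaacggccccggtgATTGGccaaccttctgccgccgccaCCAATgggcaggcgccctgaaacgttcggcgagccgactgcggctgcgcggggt
BUB1B, chr15:40160939-40161068, + strand: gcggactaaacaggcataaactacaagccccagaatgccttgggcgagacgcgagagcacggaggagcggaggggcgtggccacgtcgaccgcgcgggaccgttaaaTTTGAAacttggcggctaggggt

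TTTGAA stood in windows of 4 genes, PLK1, CCNB2, CDK1 and BUB1B, and in 15.2% of all 35114 windows in the RefSeq table. A gene was counted if any of its windows held a match, whereas the percentages here are per single window, an unlike unit. It began 29 bases before the start in both PLK1 and CCNB2 and 23 bases before it in BUB1B. The variant TTCGAA was found in BUB1 alone, at the second transcribed base, and in 1.45% of all windows. A CCAAT stood in windows of 6 of the 7 genes, all but BUB1B, and in 34.6% of all windows. In CCNB1 the pair began 87 and 55 bases before the start, and CCNB2 carried 4 in its window, of which 3 lie in the stretch shown. At least 2 CCAAT stood in 10.8% of all windows. Genes that were called and genes that were not shared both motifs. Of the called genes, PLK1 had TTTGAA and CCAAT, and AURKB and CCNB1 had CCAAT with neither TTTGAA nor TTCGAA in the windows searched. Other CHR sequences were not searched, so the windows do not show that AURKB or CCNB1 lacks a CHR. A match describes these letters only.

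CDK1 itself, on chromosome 10 at 60778331 to 60794852 (hg38, + strand), did not differ beyond the spread between libraries. Its level was 33.5, 36.3 and 75.1 scaled RPM in sh-JMJD1C 1 to 3, against 27.7, 16.7 and 65.7 in control 1 to 3. The groups overlapped, since control 3 lay above sh-JMJD1C 1 and 2, and the library numbered 3 was the highest of each group. The log2 fold change was 0.45 with an SE of 0.55 (adjusted p = 0.594, limma-voom).

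CCNB1, which encodes the main mitotic cyclin and lies on chromosome 5 at 69167010 to 69178245 (+ strand), was at 86.9, 168 and 188 scaled RPM in sh-JMJD1C 1 to 3, against 34.1, 32.5 and 51.1 in control 1 to 3. Every sh-JMJD1C library lay above every control library, with sh-JMJD1C 1 nearest to the controls. Its mean was 148 ± 53.6 in sh-JMJD1C and 39.2 ± 10.3 in control libraries (SD, n = 3 each), a log2 fold change of 1.82 with an SE of 0.42 (adjusted p = 0.0358, limma-voom), and of 1.72 in the FPKM fit (adjusted p = 0.127, limma).

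CCNB2, the second B cyclin, which is associated with the Golgi, lies on chromosome 15 at 59105078 to 59125045 (+ strand). It was at 53.4, 41.8 and 53.4 scaled RPM in sh-JMJD1C 1 to 3, against 25.6, 21.6 and 30.3 in control 1 to 3. The groups did not overlap and CCNB2 had the smallest relative spread of the 10 genes within both groups, with a coefficient of variation of 13.5% in sh-JMJD1C and 17.0% in control libraries. Its log2 fold change of 0.93 with an SE of 0.38 did not pass the test (adjusted p = 0.13, limma-voom).

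WEE1, the inhibitory kinase of CDK1 on chromosome 11 at 9573681 to 9593457 (+ strand), was at 44.3, 21.9 and 28.1 scaled RPM in sh-JMJD1C 1 to 3, against 51.2, 37.4 and 92.4 in control 1 to 3. The groups overlapped by 1 library of each, sh-JMJD1C 1 and control 2, and control 3 was the highest of all. Its mean was 31.4 ± 11.5 in sh-JMJD1C and 60.3 ± 28.6 in control libraries (SD, n = 3 each), and its log2 fold change of -0.91 with an SE of 0.46 did not pass the test (adjusted p = 0.202, limma-voom).

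PLK1, on chromosome 16 at 23677656 to 23690367 (+ strand), had the largest fold change of the 10 genes in both fits. It was at 280, 232 and 179 scaled RPM in sh-JMJD1C 1 to 3, from 493, 339 and 255 reads, against 36.3, 63.4 and 32.3 in control 1 to 3, from 17, 156 and 132 reads. The lowest sh-JMJD1C library was far above the highest control library, and control 2 stood above the other controls. The mean was 230 ± 50.4 in sh-JMJD1C and 44.0 ± 17.0 in control libraries (SD, n = 3 each), a ratio of 5.24. The log2 fold change was 2.39 with an SE of 0.40 (adjusted p = 0.0153, limma-voom), and 2.23 in the FPKM fit (adjusted p = 0.0841, limma). Of its annotated exon bases, 11.6% lie opposite exons of AC008870.3, which had 34.6, 39.1 and 20.4 scaled RPM in sh-JMJD1C libraries, against 4.27, 8.54 and 4.15 in control libraries. Since the use of strand in counting is not given, reads of the pair in the shared stretch cannot be told apart.

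AURKA, the centrosomal Aurora kinase that phosphorylates PLK1, lies on chromosome 20 at 56369389 to 56392337 (- strand). Its level was 112, 85.0 and 78.7 scaled RPM in sh-JMJD1C 1 to 3, against 23.5, 17.9 and 26.9 in control 1 to 3. The groups were far apart and each was tight, with a coefficient of variation of 19.2% in sh-JMJD1C and 19.9% in control libraries. The log2 fold change was 2.01 with an SE of 0.39 (adjusted p = 0.0216, limma-voom), and 1.57 in the FPKM fit (adjusted p = 0.103, limma).

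AURKB, the kinase of the chromosomal passenger complex at the centromere, lies on chromosome 17 at 8204733 to 8210600 (- strand). It was at 85.2, 124 and 82.9 scaled RPM in sh-JMJD1C 1 to 3, against 19.2, 30.9 and 22.7 in control 1 to 3. The groups did not overlap, and the library numbered 2 was the highest of each. The log2 fold change was 1.93 with an SE of 0.39 (adjusted p = 0.0244, limma-voom), close to that of AURKA, and 1.73 in the FPKM fit (adjusted p = 0.0981, limma).

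None of the 3 checkpoint kinase genes passed the test of either fit. BUB1, which recruits other checkpoint proteins to the kinetochore and lies on chromosome 2 at 110637698 to 110678114 (- strand), was at 78.9, 48.7 and 61.1 scaled RPM in sh-JMJD1C 1 to 3, against 21.3, 36.2 and 43.5 in control 1 to 3. These groups did not overlap, but sh-JMJD1C 2 and control 3 were close, and the log2 fold change was 0.81 with an SE of 0.40 (adjusted p = 0.19, limma-voom). BUB1B, part of the complex that inhibits the anaphase-promoting complex and on chromosome 15 at 40161023 to 40221136 (+ strand), was at 42.6, 26.1 and 45.6 scaled RPM in sh-JMJD1C 1 to 3, against 23.5, 23.6 and 32.0 in control 1 to 3. Here sh-JMJD1C 2 lay below control 3, and the log2 fold change was 0.46 with an SE of 0.41 (adjusted p = 0.452, limma-voom).

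TTK, the kinase at the top of the checkpoint on chromosome 6 at 80003887 to 80042527 (+ strand), had the fewest reads of the 10 genes, 170 in all. It was at 6.81, 2.74 and 21.1 scaled RPM in sh-JMJD1C 1 to 3, from 12, 4 and 30 reads, against 10.7, 2.85 and 27.4 in control 1 to 3, from 5, 7 and 112 reads. Both groups ran low in the library numbered 2 and high in the library numbered 3, with coefficients of variation of 94.3% in sh-JMJD1C and 91.9% in control libraries. Its log2 fold change was -0.44 with an SE of 0.92 (adjusted p = 0.765, limma-voom). The exact 95% counting intervals of control 2 (1.14 to 5.86) and control 3 (22.5 to 32.9) did not overlap, so the spread within the controls went beyond counting error.

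**Figure D2:**
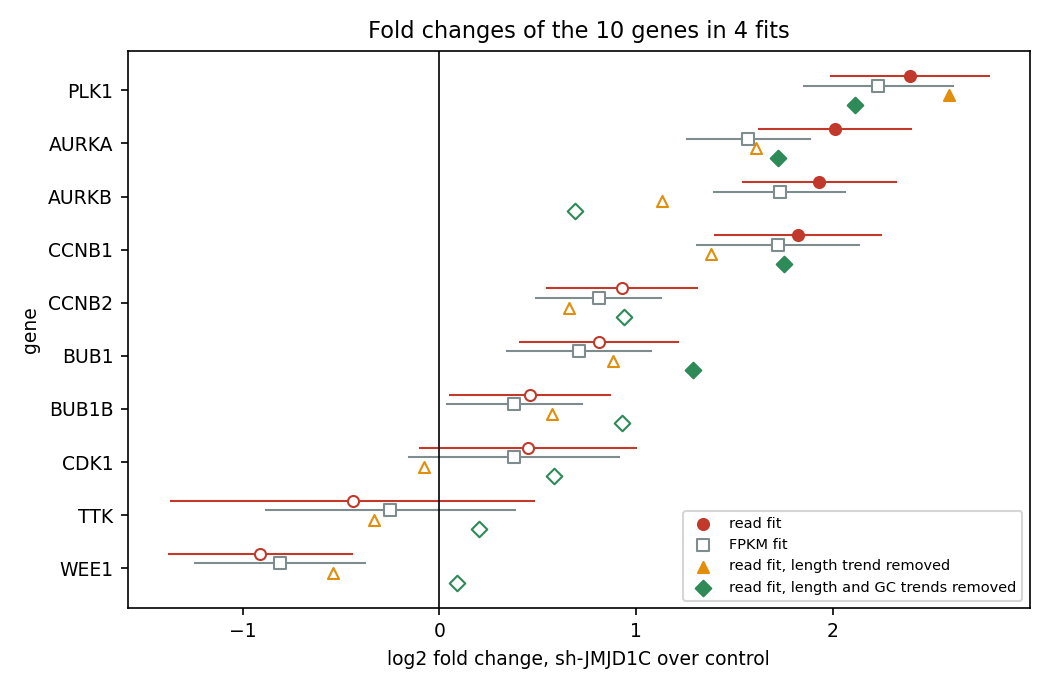
Log2 fold change of each gene, sh-JMJD1C over control, in the read fit and the FPKM fit (bars, ±1 SE) and in the read fit with trends over transcript length, or length and GC content, removed. Filled symbols have an adjusted p below 0.05. PLK1 is filled in 3 of the 4 fits and stays above 2 on the log2 scale in all 4, whereas AURKB is at 0.69 and WEE1 at 0.09 once both trends are removed.

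Over all genes the log2 fold change moved with transcript length and GC content, at a Spearman correlation of -0.46 with the longest transcript's length and 0.54 with its GC content (11857 genes, which share the same 6 libraries). Across the 10 genes the correlation with GC content was 0.89 and with length -0.32 (n = 10, the same libraries). The longest transcripts of PLK1 and AURKB had the highest GC content, 57.1 and 55.6%, and those of WEE1 and CDK1 the lowest, 37.9 and 37.0%. For PLK1 and WEE1 that transcript, of 4135 and 5187 bases, is not the longest coding one, of 2227 and 3436 bases. With the length trend removed from each library, 3.42% of all genes were called, and of the 10 genes only PLK1 was (log2 fold change 2.59, adjusted p = 0.0132, limma-voom). AURKA (1.61, adjusted p = 0.0509, limma-voom), CCNB1 (1.38, adjusted p = 0.0607) and AURKB (1.13, adjusted p = 0.0929) then missed the threshold. With length taken from the longest coding transcript instead, PLK1 (2.07, adjusted p = 0.0261, limma-voom) and AURKA (1.69, adjusted p = 0.0414) were called, beside 3.51% of all genes. With the trends over both length and GC content removed, 6.75% of all genes were called. PLK1 (2.11, adjusted p = 0.0104, limma-voom), CCNB1 (1.75, adjusted p = 0.0211), AURKA (1.72, adjusted p = 0.0244) and BUB1 (1.29, adjusted p = 0.0471) were among them, while AURKB was at 0.69 (adjusted p = 0.182). In that fit JMJD1C was at -1.20 (adjusted p = 0.0574, limma-voom). The part of base content in the fold changes was not tested beyond these fits.

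Control 1 was the shallowest library and sh-JMJD1C 1 lay apart from the other sh-JMJD1C libraries in RN7SL, so the count was repeated without both. PLK1 (2.20, adjusted p = 0.0307, limma-voom), AURKA (1.87, 0.0431 adjusted), AURKB (1.95, 0.041 adjusted) and CCNB1 (2.10, 0.026 adjusted) were then called, beside 8.38% of all genes. Leaving out control 1, control 3 or sh-JMJD1C 2 alone left none of the 10 genes called, where 0.332, 0.333 and 0.271% of all genes were, although the log2 fold changes of these 4 genes stayed between 1.72 and 2.41 there, with adjusted p from 0.0686 to 0.141 (limma-voom). Without sh-JMJD1C 3 only PLK1 was called of the 10, beside 0.863% of all genes. Without control 2 all but CCNB1 of the 4 were called, beside 10.6% of all genes, and without sh-JMJD1C 1 all 4 were, beside 20.1%.

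Ratios between the genes of 1 library do not depend on how libraries are scaled. WEE1 took 5.38, 2.79 and 3.45% of the reads of the 10 genes in sh-JMJD1C 1 to 3, against 18.8, 13.2 and 21.8% in control 1 to 3. PLK1 took 34, 29.5 and 22.0% in sh-JMJD1C 1 to 3, against 13.3, 22.4 and 7.6% in control 1 to 3. The WEE1 shares of the groups lay far apart, while the PLK1 share of control 2 was just above that of sh-JMJD1C 3. The ratio of PLK1 to WEE1 reads, an activator of mitotic entry over its brake, was 6.32, 10.6 and 6.38 in sh-JMJD1C libraries, against 0.708, 1.7 and 0.349 in control libraries. Its log2 value was higher by 3.33 in sh-JMJD1C, without overlap, at the smallest p an exact two-sided permutation test of 3 against 3 can give (p = 0.1, or 0.4 adjusted over the 4 ratios compared). PLK1 and WEE1 are also near the opposite ends of GC content among the 10 genes.

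The other ratios overlapped between the groups. Reads of both B cyclins over those of CDK1 came to 4.19, 5.77 and 3.21 in sh-JMJD1C libraries, against 2.15, 3.24 and 1.24 in control libraries, where control 2 lay just above sh-JMJD1C 3 (exact permutation p = 0.2, adjusted 0.4). AURKA over AURKB was 1.31, 0.685 and 0.949 in sh-JMJD1C libraries, against 1.22, 0.579 and 1.18 in control libraries, and the mean log2 ratio was -0.08 ± 0.47 in sh-JMJD1C and -0.09 ± 0.61 in control libraries (SD, n = 3 each, exact permutation p = 1.0). That p does not show equal ratios, and AURKB, with the higher GC content, had the smaller fold change once the length and GC trends were removed, as given above. BUB1 over BUB1B was 1.85, 1.87 and 1.34 in sh-JMJD1C libraries, against 0.909, 1.53 and 1.36 in control libraries (exact permutation p = 0.3, adjusted 0.4).

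**Figure D3:**
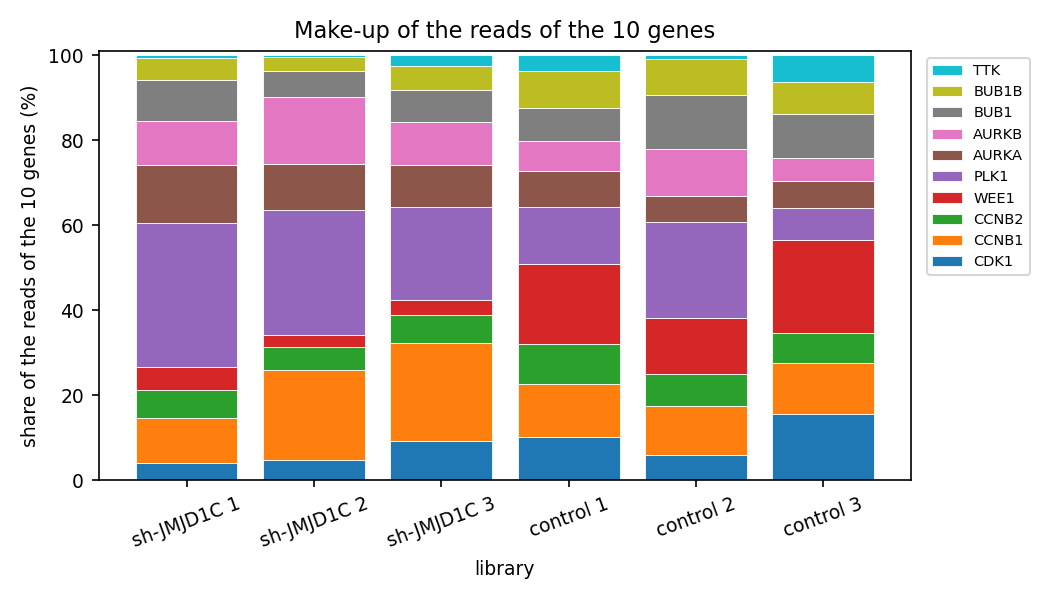
Share of the reads of the 10 genes (%) that fell on each gene, per library, sh-JMJD1C libraries left of control libraries. The WEE1 band takes 2.79 to 5.38% in sh-JMJD1C libraries and 13.2 to 21.8% in control libraries, and the PLK1 band is widest in sh-JMJD1C 1, at 34%.

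Levels of different genes were compared per kb of the longest coding transcript, and their order depends on this divisor. Scaled FPKM divide instead by the summed length of a gene's annotated transcripts. By that measure PLK1 averaged 20.7 and CCNB1 19.4 in sh-JMJD1C libraries. In control libraries CCNB1 averaged 5.4, WEE1 4.17, CCNB2 4.13, PLK1 4.1, CDK1 3.05 and AURKB 2.18. The values that follow are per kb of the longest coding transcript. In sh-JMJD1C libraries PLK1 came first at 103 ± 22.6 scaled RPM per kb (SD, n = 3), followed by AURKB at 77.6 ± 18.5, CCNB1 at 68.1 ± 24.7, AURKA at 40.9, CDK1 at 24.8, CCNB2 at 19.8, BUB1 at 17.6, BUB1B at 10.2, WEE1 at 9.15 and TTK at 2.74. In control libraries PLK1 (19.7), AURKB (19.4), CDK1 (18.8), CCNB1 (18.1) and WEE1 (17.6) stood within a narrow range, above CCNB2 (10.3), AURKA (10.1), BUB1 (9.42), BUB1B (7.07) and TTK (3.66). In the sh-JMJD1C order the neighbours AURKB and CCNB1, CDK1 and CCNB2, CCNB2 and BUB1, and BUB1B and WEE1 differed by less than the larger of their SDs. The first 5 of the control order lay closer together than their spread over libraries, and CDK1 and WEE1 held lower places in the sh-JMJD1C order. The deposited columns computed on rising shares of each library's reads allowed a look at lower depth. PLK1, AURKB and CCNB1 kept the groups apart in all 10 columns, AURKA in 9 (not at a share of 0.1), CCNB2 in 7 and BUB1 in 6. WEE1 did so in 2, and CDK1, BUB1B and TTK in 0. These columns are shares of the same reads, with no independent libraries added. How many of all genes kept their groups apart in them was not computed, so the counts have no background.

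The partners of these kinases, 62 genes in 4 lists, were read in the same fit. Of the 59 tested, 8 rose in the read fit (13.6%, against 3.71% of all genes), none fell and 51 did not pass, with a median log2 fold change of 0.36. None was called in the FPKM fit, and 5 of the 8 were called with the length trend removed.

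Among activators, inhibitors and phosphatase partners of CDK1, 1 of 15 tested genes rose. It was CCNF, whose cyclin F protein targets proteins for ubiquitination, at 139, 177 and 104 scaled RPM in sh-JMJD1C libraries, against 34.1, 22.0 and 33.0 in control libraries (log2 fold change 2.26, adjusted p = 0.0165, limma-voom). The groups lay far apart, and the gene was also called with the length trend removed (2.48, adjusted p = 0.0132). The median of the list was 0.90, and 12 of its 15 genes were above 0 (CCNB3, with 1 read in all, was not tested).

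Among Polo, Aurora and NEK kinases and their partners, 4 of 15 tested genes rose, and the list's median was 0.33. They were BIRC5 (survivin), a subunit of the chromosomal passenger complex with AURKB, AURKAIP1, which encodes an Aurora A-interacting protein that is also found in the mitochondrial ribosome, CDCA8 (borealin), another passenger subunit, and TPX2, the spindle activator of AURKA. BIRC5 was at 94.8, 304 and 258 scaled RPM in sh-JMJD1C libraries, against 10.7, 32.5 and 41.8 in control libraries (log2 fold change 2.69, adjusted p = 0.025, limma-voom). TPX2 was at 442, 237 and 304 in sh-JMJD1C libraries, against 128, 99.6 and 128 in control libraries (1.43, adjusted p = 0.0479, limma-voom). Neither gene had overlapping groups, and both were called with the length trend removed. AURKAIP1 averaged 183 ± 123 in sh-JMJD1C and 27.1 ± 5.78 in control libraries (SD, n = 3 each, 2.47, adjusted p = 0.0391, limma-voom), and CDCA8 averaged 54.1 ± 12 in sh-JMJD1C and 17.1 ± 4.02 in control libraries (1.54, adjusted p = 0.0472). Both missed the threshold with the length trend removed (adjusted p = 0.064 and 0.0745). The passenger scaffold INCENP did not pass (0.75, adjusted p = 0.296, limma-voom), and AURKC, with 4 reads in all, was not tested.

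Among checkpoint and kinetochore partners, 2 of 16 tested genes rose, and the median was 0.58. CDC20, the activator of the anaphase-promoting complex that the checkpoint restrains, was at 154, 250 and 143 scaled RPM in sh-JMJD1C libraries, against 21.3, 59.8 and 27.9 in control libraries (log2 fold change 2.31, adjusted p = 0.0216, limma-voom). Its groups lay apart, and it was called with the length trend removed (1.70, adjusted p = 0.0472). ZWINT, a kinetochore protein, averaged 156 ± 36.4 in sh-JMJD1C and 53.1 ± 9.95 in control libraries (SD, n = 3 each, 1.58, adjusted p = 0.0361, limma-voom), and missed the threshold with the length trend removed (adjusted p = 0.0849).

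Among transcription factors of G2 and M phase genes, 1 of 13 tested genes rose and the median was -0.28. MYBL2, which joins the MuvB complex at promoters of G2 and M phase genes, was at 932, 910 and 565 scaled RPM in sh-JMJD1C libraries, against 132, 172 and 113 in control libraries (log2 fold change 2.50, adjusted p = 0.00954, limma-voom). Every sh-JMJD1C library lay far above the controls, and the gene was also called with the length trend removed (2.31, adjusted p = 0.0132). FOXM1, another activator of these genes, did not pass (0.85, adjusted p = 0.176, limma-voom), and LIN37, with 25 reads in all, was not tested.

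**Figure D4:**
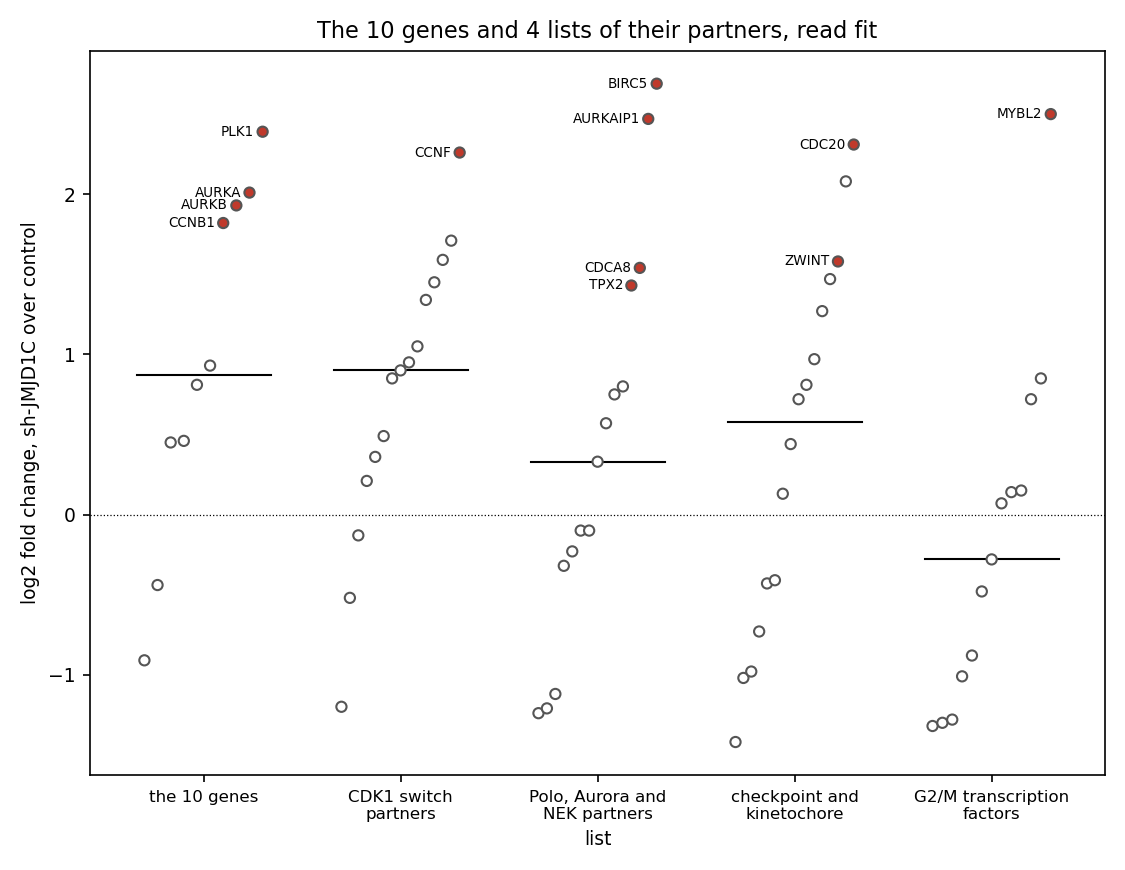
Log2 fold change in the read fit, sh-JMJD1C over control, of the 10 genes and of each tested gene in 4 lists of partners. Red, named points have an adjusted p below 0.05, and the line is the median of each list. All called genes lie above 0, and the medians run from -0.28 for the transcription factors to 0.90 for the CDK1 partners.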

How the data were processed

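Nuclear-enriched, ribosome-depleted RNA of LN-229 cells was sequenced in 3 sh-JMJD1C and 3 control libraries. The authors deposited FPKM per gene on rising shares of each library's reads, per the file headers, and the full library was used. The submitters' processing notes name Bowtie 0.12.2 and hg38 without a role. What counted the reads, on which annotation, and whether by strand is not given in the sources used here. Symbols and coordinates came from a gene name table and GENCODE release 29.

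Whole reads were recovered from the steps of the deposited FPKM: 100.0% of values up to 1000 reads were whole within 0.05 read, and the divisor equalled the summed length of a gene's annotated transcripts for 93.9% of 29280 genes above 0. FPKM of genes with many transcripts are thus low against those with few, within any library alike. The limit that a count of 0 allows, 3 reads, came to 1.01 to 5.51 RPM per library and covers counting error only.

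The FPKM fit used limma 3.58.1 (R 4.3.3) with trend on log2(scaled FPKM + 0.5), a scale that understates changes of low genes, for 18383 genes whose mean FPKM reached 0.5. The read fit used limma-voom for 11877 genes with at least 60 reads. Both were two-sided over all 6 libraries and tested on simulated data. Length and GC trends were lowess curves (span 0.3) removed per library. All 10 genes passed both filters. Whether replicate numbers pair the libraries is not given, and the main fits did not pair them. Alternatives were other pseudocounts, filters, scalings, gene sets, weights, trends, a replicate block and left-out libraries. The 10 genes, the partner lists and the tests were chosen with earlier results of these data known. Named partners were, per list and direction, up to 4 called genes with the largest fold change in the read fit; CCNB3, AURKC, LIN37, INCENP and FOXM1 were added after their values were seen.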

Additional observations from a re-analysis of the deposited data

How the results depend on the processing

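PLK1 was called in 13 of 16 alternatives of the read fit (log2 fold change 2 to 2.73), AURKA in 11 (1.5 to 2.13), AURKB in 9 (0.69 to 2.12) and CCNB1 in 8 (1.38 to 2.16), and none of the 4 changed sign in either fit. Of all genes, the read fit called 656, 67.2% of them higher, against 1195 (26% higher) with library totals, 1020 (52.3% higher) with quantile normalization, 1079 with protein-coding genes only, 406 without the length trend, and 417 with that trend over the longest coding transcript, an alternative chosen after seeing the data. Of the 10 genes it called 4, against 3 with library totals (CCNB1 lost), 1 without the length trend and 2 without it by the coding length. Library totals moved the median of all genes to -0.52 and that of the 10 genes to 0.46. Leaving out 1 library gave 31 (without sh-JMJD1C 2) to 2305 (without sh-JMJD1C 1) called genes and 0 to 4 of the 10 (0 without control 1, control 3 or sh-JMJD1C 2). The FPKM fit called 34 genes, 32.4% higher, against 84 with a pseudocount of 0.1, 79 on FPKM as deposited (26.6% higher), 2 with quantile normalization, 118 with array weights, 4 on a share of 0.5 of the reads, and 914 with protein-coding genes only (57.2% higher), where 4 of the 10 genes were called, PLK1, AURKA, AURKB and CCNB1. It called 0 with a pseudocount of 1, no filter, or both libraries numbered 1 left out (limma; 3587, 3821 and 4281 genes at an unadjusted p under 0.05), and 0 to 692 with 1 library left out, with 0 to 1 of the 10 genes. Whether same-numbered libraries share a batch is not given and was not tested. In deviations from their group means, same-numbered libraries correlated at 0.023, 0.375 and 0.48. This was the highest with any control for sh-JMJD1C 2 (others -0.118 and -0.259) and sh-JMJD1C 3 (others 0.085 and -0.571). By contrast, sh-JMJD1C 1 correlated best with control 2, at 0.181. With the replicate block the read fit called 4260 of all 11877 genes tested and 6 of the 10 (also CCNB2, and WEE1 lower, at -0.95). With the length trend also removed it called 3364 of the 11877 and 4 of the 10. The FPKM fit with the block called 0 (limma, 4406 genes at an unadjusted p under 0.05). Signs turned for TTK (FPKM fit 0.02 with quantile normalization, and -0.68 to 0.20 with 1 library left out, above 0 without sh-JMJD1C 2 or control 3; read fit 0.20 with length and GC trends removed and -1.54 to 0.21 with 1 library left out, above 0 without sh-JMJD1C 2), for WEE1 (0.09 with both trends removed) and for CDK1 in the read fit (-0.08 without the length trend, -0.08 to 1.12 with 1 library left out, below 0 without control 2, -0.01 by the coding length, -0.07 with block and length trend). The log2 ratio of AURKA to AURKB, 0.01, ranged from -0.34 to 0.24 with 1 library left out and was -0.04 without both libraries numbered 1, tests added after seeing the data. The cause of these changes was not tested. Depth leaves TTK with 4 to 112 reads per library.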
